A study of Homo sapiens with 8 samples.

Results

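The SWI/SNF chromatin remodelling subunits described here are 10 protein-coding genes. The rule that chose them was a list of names that used no measured value, although the list was drawn up with earlier results of these data known. They are SMARCA4, SMARCA2, SMARCB1, SMARCC1, SMARCC2, SMARCD1, ARID1A, ARID1B, ARID2 and PBRM1. They are 10 of the 58735 genes in the deposited transcript tables, and all 10 were among the 18242 genes that were tested, which had at least 10 counts in at least 2 libraries. The RNA came from BEAS-2B, an established line of human bronchial epithelial cells immortalised with a viral hybrid, grown on collagen-coated inserts at an air-liquid interface. Cells were exposed to clean air (CA) or air with 1 ppm formaldehyde (FA) for 2 h and then recovered for 6 h. RNA depleted of ribosomal RNA was sequenced as input (CA_IN and FA_IN), and a portion of it was sequenced after immunoprecipitation with an antibody against 8-oxo-7,8-dihydroguanine, or 8-oxoG (CA_IP and FA_IP). Each of the 4 groups held 2 libraries, which the study calls biological duplicates of this single cell line. The antibody clone given in the extraction protocol differs from the clone given elsewhere, so it is not stated here.

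SWI/SNF complexes use the energy of ATP to slide or evict nucleosomes, which opens promoters and enhancers to transcription factors and repair enzymes. Each complex is built around an ATPase and a shared core, and variable subunits make it a canonical BAF complex (with ARID1A or ARID1B) or a PBAF complex (with ARID2 and PBRM1). Genes of these subunits are among the chromatin genes most often mutated in human cancers, lung cancers included. 8-oxoG is the commonest oxidised form of guanine in RNA, and pull-down against input shows which transcripts are over-represented in the antibody-bound RNA.

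The 4 input libraries held 26152651 to 45144392 expected counts, the read totals that RSEM assigns to transcripts, and the 4 immunoprecipitated libraries held 16883500 to 23658012. The members together took 0.0522 to 0.0528% of the counts in input and 0.0575 to 0.061% in IP. Epithelial markers fixed for the cell type check were present in every library. The summed TPM, the length-scaled transcript level from RSEM, of 8 epithelial genes such as KRT8, KRT5 and EPCAM was 1268 to 1636 in input and 2901 to 3879 in IP. The leukocyte gene PTPRC had at most 2 counts in a library and the haemoglobin gene HBB had 0 in all 8, while the endothelial gene PECAM1 had 9 to 26. Of the mesenchymal genes, VIM was abundant (173.1 to 475.9 TPM), and COL1A1 (0.92 to 2.34 TPM) and PDGFRB (0.16 to 0.7 TPM) were low. Mean TPM was higher in IP than in input for every member, so TPM was read only within a fraction, and libraries were compared by CPM after TMM normalisation (TMM CPM), edgeR's trimmed-mean scaling of library totals. All of these values are relative to the other RNAs of a library, and in bulk RNA fewer cells with a transcript and less of it per cell cannot be told apart.

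Per length of transcript, SMARCB1 and SMARCC1 were the most abundant members. In input the mean TPM was 11.1 ± 1.15 for SMARCB1 and 10.3 ± 0.689 for SMARCC1 (SD, n = 4), and the ranges of these genes overlapped. SMARCD1 (7.61), SMARCA4 (7.55), PBRM1 (7.43) and SMARCC2 (6.55 TPM) followed, with overlapping ranges between neighbours. SMARCA2 had 4.4 ± 0.547 TPM, below every library of SMARCC2 and above every library of ARID1B. The DNA-binding subunits ARID1B (2.51), ARID1A (1.8) and ARID2 (1.67 TPM) came last and overlapped their neighbours. In IP the order was alike, with SMARCB1 at 23.5 ± 1.68 TPM above all libraries of SMARCC1 (18 TPM), and with ARID1B, ARID1A and ARID2 again last at 4.11, 3.31 and 2.89 TPM. The 2 libraries of a group differed little for these genes. Their median absolute log2 ratio of TMM CPM was 0.11, against 0.204 over all genes tested, and it ran from 0.0601 for SMARCD1 to 0.221 for ARID1A.

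**Figure D1:**
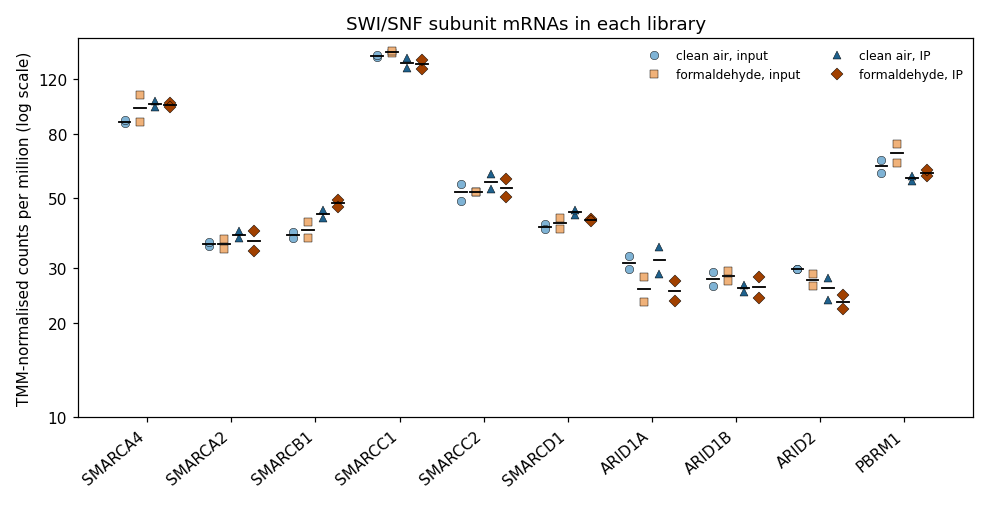
TMM CPM (log scale) of the 10 SWI/SNF subunit mRNAs in each of the 8 libraries, with symbols for the 4 groups and a bar at each group mean. SMARCC1 lies highest, between 128.5 and 147.3 CPM, ARID1A, ARID1B and ARID2 lie lowest, and the groups of a gene lie close together.

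Pull-down against input asks which mRNAs were over-represented among RNAs bound by the antibody. In the clean air cells, mRNAs of SMARCB1, SMARCA4 and SMARCD1 had the highest log2 differences of IP against input (0.22, 0.19 and 0.15), and those of ARID2 and PBRM1 had the lowest (-0.21 and -0.13). In the formaldehyde cells SMARCB1 was again at the top (0.28) and ARID2 and PBRM1 at the bottom (-0.23 and -0.21). None of these gene-level differences passed the unpaired test, and SMARCB1 in formaldehyde was called only when the fit blocked on the RNA pool (adjusted p = 0.0176 in edgeR). By edgeR's quasi-likelihood test with Benjamini-Hochberg adjustment over all genes, 0 of 10 members were called at an adjusted p under 0.05 in CA_IP against CA_IN, where 1.91% of all genes were, and 0 of 10 in FA_IP against FA_IN, where 1.5% of all genes were. At an unadjusted p under 0.05, 0 members stood in clean air (12.6% of all genes) and 1, SMARCB1, in formaldehyde (9.1% of all genes). With the RNA pool as a block, the edgeR adjusted p was 0.0714 for SMARCA4 and 0.0869 for ARID2 in clean air. In formaldehyde it was 0.0749 for PBRM1 and 0.0913 for ARID2. Apart from these and SMARCB1, members had at least 0.175 in clean air and 0.238 in formaldehyde. The blocked fits called 17.4% and 10.1% of all genes. Of all genes, 0.148% were called as higher and 1.77% as lower in clean air, and 0.0329% and 1.47% in formaldehyde. DESeq2 called 0 of 10 in each, against 5.04% of the 10108 genes to which it gave an adjusted p in clean air (all 10 members among them) and 2.13% of 18242 genes in formaldehyde. The median log2 difference of the members was 0.07 in clean air and 0.00 in formaldehyde, beside 0.02 and 0.00 over all genes tested.

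Formaldehyde against clean air asks whether the exposure changed the level of these mRNAs. In input, ARID1A had the lowest log2 difference (-0.28) and SMARCA4 the highest (0.15), and 0 of 10 members were called, where 0.00548% of all genes were. In IP, ARID1A was again lowest (-0.33) and SMARCB1 highest (0.12), with 0 of 10 called, where 0.0% of all genes were. At an unadjusted p under 0.05, 0 members stood in either fraction, against 3.35% of genes in input and 4.77% in IP, and DESeq2 called 0 of 10 in both (0.0164% and 0.0219% of genes). With the number in the submitters' file names as a replicate block, edgeR also called 0 of 10 in both. That block called 1.41% of all genes in input and 2.08% in IP. The 95% intervals of the main fit bound what could have been missed. Over all members they ran from -0.62 to 0.38 on the log2 scale in input and from -0.67 to 0.36 in IP. The difference in enrichment, which is the enrichment in formaldehyde minus that in clean air, was tested as the interaction of treatment and fraction. It lay between -0.16 for SMARCA4 and 0.07 for SMARCB1, its adjusted p was 1.0 for all 10 members, and 0 of 10 were called, where 0.0% of all genes were. At an unadjusted p under 0.05, 0 members stood there (1.07% of genes), and DESeq2 again called 0 of 10 (0.0164%).

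**Figure D2:**
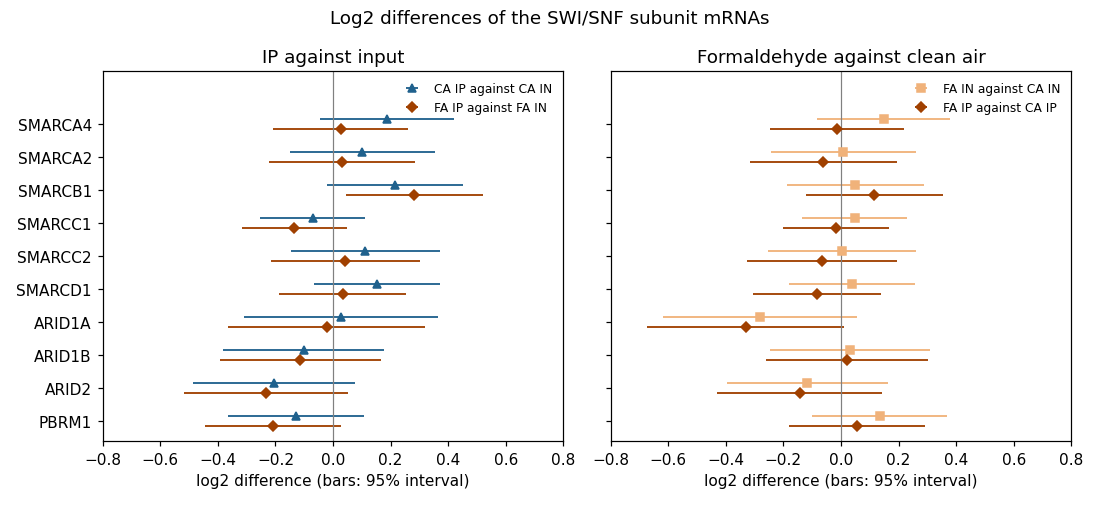
Log2 differences of the 10 members with 95% intervals from edgeR, for IP against input in each treatment (left) and formaldehyde against clean air in each fraction (right). The interval excludes 0 for SMARCB1 in FA_IP against FA_IN (0.04 to 0.52) and spans 0 for every other value plotted.

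The catalytic ATPases of the complex are SMARCA4 (BRG1) and SMARCA2 (BRM), which exclude each other from a complex. SMARCA4 (ENSG00000127616) lies on the plus strand of chromosome 19 from 10960932 to 11079426 in GRCh38. It had 86.7 and 88.4 TMM CPM (CA_IN), 106.5 and 87.7 (FA_IN), 97.8 and 101.7 (CA_IP) and then 100.1 and 97.5 (FA_IP). Replicate 1 of FA_IN was the highest of the 8 libraries, so that input and IP overlapped through it alone. Its log2 difference of IP against input was 0.19 (95% interval -0.04 to 0.42) in clean air and 0.03 (-0.21 to 0.26) in formaldehyde. SMARCA2 (ENSG00000080503) lies on the plus strand of chromosome 9 from 1980290 to 2193624. Its TMM CPM was 35.1 and 36.1 (CA_IN), 34.5 and 37.0 (FA_IN), 37.2 and 39.2 (CA_IP) and then 33.9 and 39.2 (FA_IP). The groups overlapped, and no comparison of SMARCA2 had an interval that left out 0.

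SMARCB1 (ENSG00000099956) encodes the small core subunit that holds the complex to the nucleosome, and its loss drives rhabdoid tumours. It lies on the plus strand of chromosome 22 from 23786931 to 23838009. Its TMM CPM was 39.1 and 37.3 (CA_IN), 42.0 and 37.2 (FA_IN), 43.1 and 45.7 (CA_IP) and then 49.3 and 46.9 (FA_IP). All 4 IP libraries lay above all 4 input libraries, as 7.76% of all genes did, and both FA_IP libraries lay above both CA_IP libraries, as 15.8% of genes did. The IP level was 1.16 times the input level in clean air (log2 difference 0.22, 95% interval -0.02 to 0.45, edgeR adjusted p = 0.457) and 1.22 times in formaldehyde (0.28, 0.04 to 0.52, adjusted p = 0.412). With a block for the RNA pool that input and IP shared, the formaldehyde value was 0.28 (SE 0.077) and was called by edgeR (adjusted p = 0.0176), a fit in which 10.1% of all genes were called. In clean air the blocked adjusted p was 0.0533, where 17.4% of genes were called. Over the 18 alternative settings the adjusted p of the formaldehyde value ranged from 0.0176 to 1.0, and only the RNA pool block took it under 0.05.

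SMARCC1 (BAF155) and SMARCC2 (BAF170) are the paired scaffold on which the core assembles. SMARCC1 (ENSG00000173473, minus strand of chromosome 3 from 47585269 to 47782106) had the most counts of the members. Its TMM CPM was 141.0 and 142.3 (CA_IN), 145.2 and 147.3 (FA_IN), 139.7 and 130.0 (CA_IP) and then 128.5 and 138.0 (FA_IP). All 4 IP libraries lay below all 4 input libraries, as 5.9% of genes did, and both FA_IN libraries lay above both CA_IN libraries, as 18.1% of genes did. The differences were small, with log2 values of IP against input of -0.07 (-0.25 to 0.11) in clean air and -0.13 (-0.32 to 0.05) in formaldehyde. SMARCC2 (ENSG00000139613, minus strand of chromosome 12 from 56162359 to 56189567) ranged from 48.9 to 55.6 TMM CPM in input and from 50.2 to 59.5 in IP, and its groups overlapped. SMARCD1 (BAF60A, ENSG00000066117, plus strand of chromosome 12 from 50085200 to 50100707) is a core subunit that links the complex to transcription factors. Its TMM CPM was 41.3 and 39.7 (CA_IN), 43.2 and 39.99 (FA_IN), 44.2 and 45.9 (CA_IP) and then 42.9 and 42.2 (FA_IP). Both FA_IP libraries lay below both CA_IP libraries, as 17.2% of genes did, with a log2 difference of -0.08 (-0.30 to 0.14).

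ARID1A and ARID1B are the alternative DNA-binding subunits of canonical BAF, and ARID1A is the member most often inactivated in tumours. ARID1A (ENSG00000117713) lies on the plus strand of chromosome 1 from 26693236 to 26782104. Its TMM CPM was 32.6 and 29.7 (CA_IN), 28.1 and 23.3 (FA_IN), 34.8 and 28.7 (CA_IP) and then 27.2 and 23.4 (FA_IP). In each fraction both formaldehyde libraries lay below both clean air libraries, as 15.8% of genes did in input and 17.2% in IP. The log2 difference of formaldehyde against clean air was -0.28 in input (-0.62 to 0.06, edgeR adjusted p = 0.945) and -0.33 in IP (-0.67 to 0.01, adjusted p = 0.907). Input and IP of one treatment come from the same RNA pools, so these are not separate observations of the exposure. Over the 17 alternative settings the value in IP lay between -0.46 and -0.18 and was called in 0 of them (adjusted p from 0.0735 to 1.0). ARID1A was also the member whose duplicates differed most, and in both fractions replicate 1 lay above replicate 2 in each treatment. ARID1B (ENSG00000049618, plus strand of chromosome 6 from 156776020 to 157210779) showed no such gap. It had 26.3 and 29.1 TMM CPM in CA_IN and 27.3 and 29.3 in FA_IN, and 25.1 to 26.4 and 24.1 to 28.1 in CA_IP and FA_IP.

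The subunits that mark PBAF are ARID2, its DNA-binding subunit, and PBRM1 (BAF180), which reads acetylated histones with its bromodomains and is a tumour suppressor of the kidney. ARID2 (ENSG00000189079, plus strand of chromosome 12 from 45729706 to 45908040) had 29.8 and 29.8 TMM CPM (CA_IN), 26.3 and 28.6 (FA_IN), 27.9 and 23.7 (CA_IP) and then 22.1 and 24.5 (FA_IP). Both FA_IN libraries lay below both CA_IN libraries, as 15.8% of genes did, with a log2 difference of -0.12 (-0.40 to 0.16). Its log2 difference of IP against input was -0.21 (-0.49 to 0.08) in clean air and -0.23 (-0.52 to 0.05) in formaldehyde, the lowest of the members in both. PBRM1 (ENSG00000163939, minus strand of chromosome 3 from 52545352 to 52685917) had 60.3 and 66.3 TMM CPM (CA_IN), 64.5 and 74.4 (FA_IN), 56.7 and 59.0 (CA_IP) and then 58.9 and 61.2 (FA_IP). Replicate 2 of FA_IP exceeded replicate 1 of CA_IN, and otherwise the IP libraries lay below the input libraries. The log2 difference was -0.13 (-0.36 to 0.11) in clean air and -0.21 (-0.45 to 0.03) in formaldehyde.

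Members with more guanine in their transcripts tended to have the higher differences of IP against input. The most abundant isoform by mean TPM had 30.6% guanine in SMARCA4 and 28.4% in SMARCB1, which lay at percentiles 88.3 and 75.4 of all genes. It had 21.5% in PBRM1 and 19.7% in ARID2, at percentiles 19.9 and 8.22. Spearman's correlation of guanine share with the log2 difference of IP against input over the 10 members was 0.745 in clean air and 0.661 in formaldehyde. Over the 17905 tested genes with a sequence it was 0.519 and 0.393. With the share of guanine and cytosine together (GC), the correlations were 0.818 and 0.673 over the members and 0.516 and 0.369 over all these genes. The trend was thus not particular to guanine, and the shares of guanine and of GC were not told apart. These are descriptions across genes measured in the same libraries, and genes are not independent replicates. When genes were sorted by guanine share into 10 equal bins, the median log2 difference of a bin ran from -0.20 to 0.30 in clean air and from -0.14 to 0.20 in formaldehyde. In each treatment 8 of the 10 members lay between the quartiles of their own bin, where 50% of all genes lie by construction. SMARCD1 lay above and ARID1B below that range in clean air, and SMARCB1 lay above and PBRM1 below it in formaldehyde. Long transcripts of the members also had lower values (Spearman's correlation with length -0.455 and -0.6), beside 0.0306 and 0.0219 over all genes. For SMARCA2 and ARID1B the isoform with the highest TPM is short (1178 and 576 bases), and with the isoform of the largest share of counts in its place, chosen after seeing the data, the correlations with guanine were 0.891 and 0.77 and those with length -0.879 and -0.842. What part base composition has in these differences was not tested.

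**Figure D3:**
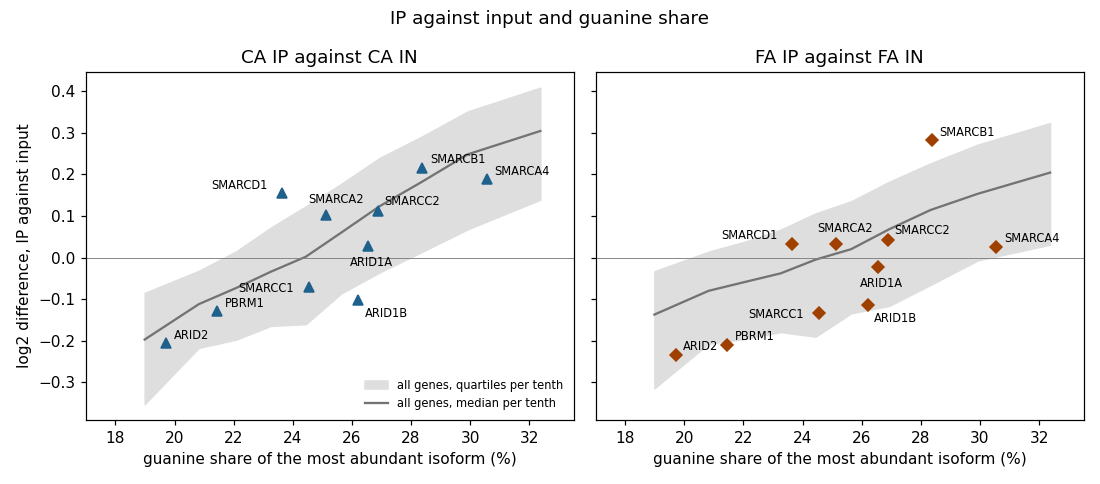
Log2 difference of IP against input (y) over the guanine share of the most abundant isoform in percent (x) for the 10 members, in clean air (left) and formaldehyde (right). The grey line joins the medians of all tested genes in 10 bins of guanine share, from -0.20 to 0.30 and from -0.14 to 0.20, the band spans their quartiles, and 8 of 10 members lie in the band in each panel.

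At the level of isoforms the members were much less certain than as genes. The tables hold 258 isoforms of the 10 genes, of which 209 had counts and 127 passed the filter and were tested. SMARCA2 had 66 isoforms listed and SMARCA4 had 54, against 8 for SMARCC1. The median absolute log2 ratio between the libraries of a group was 0.488 over the 127 isoforms, a 1.4-fold difference, against 0.361 over all isoforms tested and 0.11 for the member genes. In 42 of the 127, at least 1 pair of duplicates held 0 in a library and 10 or more counts in the other. RSEM divides reads among isoforms, and many isoforms of these genes have little sequence of their own. Of the 126 tested isoforms with a sequence in GENCODE 44, 36 had no stretch of 75 bases, the read length, that no other isoform of the gene contained, and 82 had under 10% of such stretches. The spread between duplicates was 0.716 (median, log2) in those 82 and 0.322 in the others. The commands in the study's supplement are for paired reads, and a pair can span more than a single window. What read pairs could tell apart was not examined.

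**Figure D4:**
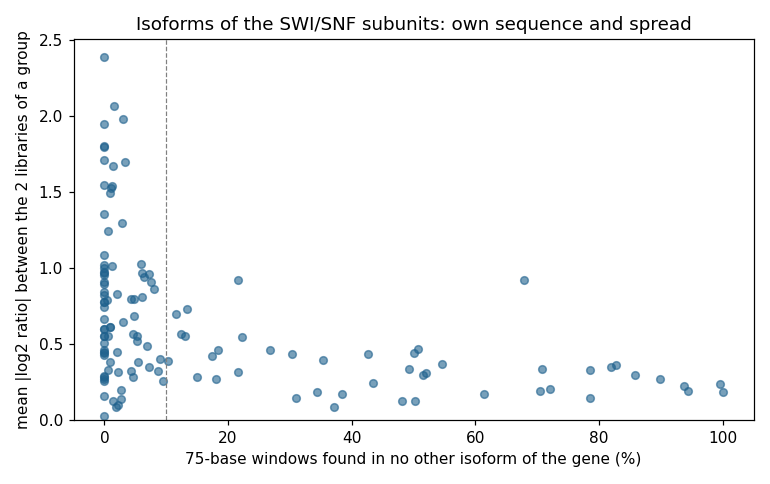
Mean absolute log2 ratio between the 2 libraries of a group (y) over the percent of 75-base windows found in no other isoform of the gene (x), with 1 point for each of 126 member isoforms and a dashed line at 10%. The largest ratios, up to 2.39, lie at the left, and the median is 0.716 under 10% and 0.322 from 10% upward.

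No isoform of a member was called by edgeR's quasi-likelihood test in any comparison, with 0 of 127 in CA_IP against CA_IN (0.242% of all isoforms were called), 0 in FA_IP against FA_IN (0.144%), and 0 in FA_IN against CA_IN, FA_IP against CA_IP and the difference in enrichment (0.0% in each). At an unadjusted p under 0.05 the counts were 10, 10, 3, 6 and 7 of 127 in that order, or 7.87, 7.87, 2.36, 4.72 and 5.51%, against 7.06, 5.95, 2.8, 4.43 and 2.92% of all isoforms. DESeq2 called 2 (SMARCA4 ENST00000646484 and ENST00000450717), 4 (SMARCA2 ENST00000637806, PBRM1 ENST00000410007, ARID1A ENST00000457599 and SMARCC1 ENST00000254480), 0, 1 and 1 (ENST00000646484 in both) of them, against 2.28, 1.55, 0.18, 0.492 and 0.338% of all isoforms. The smallest adjusted p in edgeR was 0.273, for SMARCA4 ENST00000646484 in clean air. A test of isoform shares within genes (edgeR's diffSpliceDGE with a Simes p per gene) covered all 10 members. It called 0 of 10 in clean air (1.67% of genes), 1 of 10 in FA_IP against FA_IN (0.898%), and 0 of 10 in input and in IP between treatments (0.601 and 0.933%) and in the difference in enrichment (1.04%). The called gene was ARID1A. At an unadjusted p under 0.05 the counts were 2, 3, 1, 0 and 1 of 10, against 9.6, 8.45, 7.07, 8.47 and 8.72% of genes.

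ARID1A was called in FA_IP against FA_IN through an isoform that few libraries held. Its main isoform, ENST00000324856, took 65.1 and 66.9% of the gene's counts (CA_IN), 74.3 and 74.4% (FA_IN), 71.2 and 50.6% (CA_IP) and then 58.8 and 73.6% (FA_IP). The isoform ENST00000457599, which lacks 651 coding bases (chr1:26774329-26774979, plus strand) without a change of reading frame, was assigned 27.03 and 1.57 expected counts (CA_IN), 0 and 0 (FA_IN), 15.1 and 120.3 (CA_IP) and then 70.4 and 4.76 (FA_IP). It was high in 1 library of each IP group and low in the other. Against the 3 counts per library that were taken as the limit of a count of 0, it was at least 19.1-fold higher in FA_IP than in FA_IN, but at least 1.85-fold from replicate 2 of FA_IP alone. The call held when some single libraries were left out, those of CA_IP among them, and was lost without others. The Simes adjusted p of the gene was 0.0278, and 0.0301 with library size in place of TMM. It was 0.674 without replicate 1 of FA_IP, 0.295 and 0.344 without replicate 1 or 2 of FA_IN, and 0.0562 and 0.0878 without replicate 1 or 2 of CA_IN. It was 0.392 with the RNA pool as a block, and 1.0 among isoforms with a mean count of at least 50 or at least 5% of their gene, which this isoform did not reach. The study tabulates this isoform and chose it on these libraries, as it did SMARCA4 ENST00000642726 and ENST00000646484 and PBRM1 ENST00000410007, so that none of these 4 is independent evidence of its direction.

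SMARCA4 isoforms differ by short coding segments, shown here because they separate the tabulated ENST00000642726 and the isoforms ENST00000646183 and ENST00000538456 from the main isoform or from each other. Capitals mark the segment that some isoforms hold and others lack, and the 15 lower-case bases on each side are the joined transcript around it (GRCh38, plus strand, reference sequence read 5′ to 3′). The long exon and the 9-base stretch sit at the same junction, so that the flanks of both are alike.
SMARCA4 long exon of 96 bases, chr19:11039458-11039553: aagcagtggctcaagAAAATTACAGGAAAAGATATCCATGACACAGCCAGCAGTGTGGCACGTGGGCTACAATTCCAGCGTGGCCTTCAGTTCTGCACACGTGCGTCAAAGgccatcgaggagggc
SMARCA4 stretch of 9 bases, chr19:11041298-11041306: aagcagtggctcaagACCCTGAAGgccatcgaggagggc
SMARCA4 stretch of 3 bases, chr19:11058255-11058257: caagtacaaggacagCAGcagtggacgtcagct

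The main SMARCA4 isoform, ENST00000647230, took 40.6 and 36.1% of the gene's counts (CA_IN), 33.3 and 52.3% (FA_IN), 41.3 and 34.4% (CA_IP) and then 37.8 and 31.3% (FA_IP), so that its groups overlapped. Isoforms with the 96-base exon held 2.73 to 4.0% of the counts over the site in input, 2.3 and 1.05% in CA_IP and 5.15 and 5.96% in FA_IP. Both FA_IP libraries lay above the other 6. Isoforms with the 3-base stretch held 66.0 to 73.4% in input and 53.4 to 64.7% in IP, and the fractions did not overlap. The 9-base stretch held 24.1 to 30.8% in input and 26.2 to 29.7% in IP. These shares are sums of RSEM's isoform counts and not of reads across junctions, and they were picked out after their values were seen, with no test. How often segments of other genes stand apart in this way was not computed.

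ENST00000646484 had the smallest p of the member isoforms in the difference in enrichment. Its expected counts were 304.8 and 170.0 (CA_IN), 138.1 and 21.9 (FA_IN), 0 and 0 (CA_IP) and then 51.3 and 132.5 (FA_IP). It was at least 43.8-fold lower in CA_IP than in CA_IN and at least 31-fold higher in FA_IP than in CA_IP, counting 3 counts per library as the limit. From replicate 2 of CA_IN alone and replicate 1 of FA_IP alone these bounds were 35.2-fold and 21-fold. The edgeR adjusted p was 0.273 in clean air and 1.0 for the difference in enrichment, while DESeq2 called it in both (adjusted p = 2.59e-05 and 0.00249), as did edgeR without the filter on low counts (0.000824 and 0.0118). None of its 75-base windows was its own, and the bounds do not cover how RSEM divides reads. ENST00000642726, which holds the 96-base exon, had 75.9 and 23.0 counts (CA_IN), 0 and 1.11 (FA_IN), 0 and 0 (CA_IP) and then 11.5 and 0.19 (FA_IP). It was at least 8.9-fold lower in CA_IP than in CA_IN, or at least 4.75-fold from replicate 2 of CA_IN alone, and passed the test in no comparison (adjusted p from 0.62 to 1.0). It had no 75-base window of its own either.

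The smallest p of the member isoforms between the treatments in input belonged to SMARCA4 ENST00000646183, which also holds the 96-base exon, and ENST00000538456, which holds the 9-base stretch. ENST00000646183 had 25.9 and 31.9 counts in FA_IN and at most 0.04 in any other library. It was at least 13.2-fold higher in FA_IN than in CA_IN, or at least 12.5-fold from replicate 2 of FA_IN alone. It passed the filter through the FA_IN libraries alone, so its higher level there is no evidence of a difference. ENST00000538456 had 10.7 and 19.4 counts (CA_IN), 0 and 0 (FA_IN), 22.8 and 15.7 (CA_IP) and then 0 and 13.1 (FA_IP), at least 3.68-fold lower in FA_IN than in CA_IN, or at least 2.31-fold from replicate 1 of CA_IN alone. Both had an edgeR adjusted p of 1.0 there. The leading isoform of SMARCA2, ENST00000357248, took 17.1 and 0.01% of the gene's counts in CA_IN and 13.7 to 29.5% in IP. ENST00000637806 had 51.5 and 61.6 counts (CA_IN), 140.3 and 156.0 (FA_IN), 26.5 and 64.7 (CA_IP) and then 7.11 and 0 (FA_IP). Both FA_IN libraries were the highest and both FA_IP libraries the lowest. ENST00000637806 is named because its p in the difference in enrichment was among the 2 smallest of the member isoforms. How often isoforms of all genes show this order of groups was not computed. None of its read-length windows was its own. For FA_IP against FA_IN its edgeR adjusted p was 0.468, while DESeq2 (adjusted p = 0.00273) and edgeR without the filter (0.0239) called it.

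**Figure D5:**
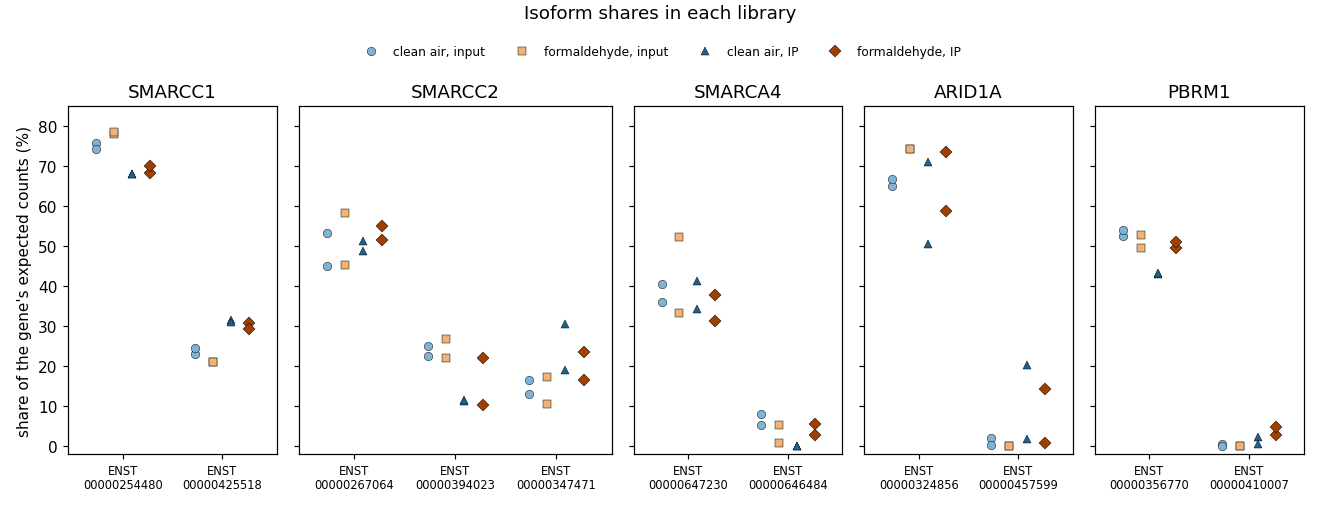
Share of the gene's expected counts in percent for 11 isoforms of 5 members in each of the 8 libraries, with symbols for the 4 groups. For SMARCC1 the 4 IP libraries lie apart from the 4 input libraries in both isoforms (29.4 to 31.5% against 20.9 to 24.5% for ENST00000425518). For ARID1A ENST00000457599 the libraries of each IP group lie apart from each other (1.83 and 20.26% in CA_IP, 14.35 and 0.84% in FA_IP). PBRM1 ENST00000410007 lies at 0 to 0.5% in input and 0.6 to 4.72% in IP.

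The shares of SMARCC1 isoforms stood apart between the fractions. Over the 37 member isoforms with at least 5% of their gene's counts, the shares of 6 (16.2%) did not overlap between the 4 IP and the 4 input libraries, as 7.07% of such isoforms of all genes did. For SMARCC1 the protein-coding ENST00000254480 took 75.9, 74.4, 78.2 and 78.5% in the inputs (CA_IN, then FA_IN) and 68.1, 68.2, 68.4 and 70.1% in the pull-downs. ENST00000425518, a SMARCC1 transcript with no coding sequence defined in the annotation, took 23.0, 24.5, 20.9 and 21.1% in the inputs and 31.5, 31.1, 30.7 and 29.4% in the pull-downs. Both gaps were wider than the spread in either fraction, although the shares of these isoforms are complements of each other and count as 1 observation. The share test did not call them, with a p per isoform of 0.172 in clean air and 0.0777 in formaldehyde for ENST00000425518 (edgeR, adjusted p 1.0 in both). As isoforms, ENST00000254480 had log2 differences of -0.24 and -0.32 with edgeR adjusted p of 0.65 and 0.558, and DESeq2 called it in formaldehyde (0.0294). The other isoforms without overlap were SMARCC2 ENST00000394023 (22.0 to 26.7% in input, 10.3 to 22.0% in IP), SMARCA2 ENST00000349721 (12.8 to 28.2%, 0 to 9.26%) and ENST00000634760 (0 to 6.73%, 7.56 to 10.3%), and SMARCA4 ENST00000644065 (4.79 to 8.22%, 9.37 to 16.6%). For ENST00000394023 the gap was almost nil, with 22.04% in replicate 1 of FA_IN and 22.03% in replicate 1 of FA_IP.

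SMARCC2 and PBRM1 carry alternative exons whose reference sequences are given because they separate the isoforms that took the largest shares or that the study tabulates. Capitals mark the exon, flanked by 15 bases of joined transcript on each side (GRCh38, minus strand, 5′ to 3′).
SMARCC2 exon of 93 bases, chr12:56172937-56173029: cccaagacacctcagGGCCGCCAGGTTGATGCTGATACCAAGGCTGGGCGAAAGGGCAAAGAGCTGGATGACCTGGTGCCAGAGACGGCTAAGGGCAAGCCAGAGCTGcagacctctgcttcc
PBRM1 exon of 96 bases, chr3:52643248-52643343: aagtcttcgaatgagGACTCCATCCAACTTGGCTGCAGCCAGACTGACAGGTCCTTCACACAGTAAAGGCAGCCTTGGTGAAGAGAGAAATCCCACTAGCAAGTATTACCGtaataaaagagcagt

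In SMARCC2, ENST00000394023 and ENST00000347471 hold the 93-base exon, and the main isoform ENST00000267064 lacks it. Isoforms with the exon held 35.0 to 48.5% of counts over the site in input and 39.8 to 44.9% in IP, so that the fractions overlapped. ENST00000394023 itself was lower in IP, though barely so in replicate 1 of FA_IP. ENST00000347471 took 10.5 to 17.2% in input and 16.4 to 30.5% in IP. In PBRM1 the main isoform ENST00000356770 took 49.5 to 54.0% in input, 43.1 and 43.2% in CA_IP and 49.6 and 51.0% in FA_IP. Isoforms with the 96-base exon held 40.7 to 45.5% in input, 52.8 and 52.3% in CA_IP and 44.8 and 44.3% in FA_IP, so that both CA_IP libraries lay above the other 6. PBRM1 ENST00000410007, which holds this exon, had 13.0 and 0 counts (CA_IN), 0 and 0 (FA_IN), 29.8 and 7.31 (CA_IP) and then 29.8 and 70.3 (FA_IP). It was at least 21.4-fold higher in FA_IP than in FA_IN, or at least 15.4-fold from replicate 1 of FA_IP alone. Its edgeR adjusted p was 0.556, while DESeq2 (0.0183) and edgeR without the filter (0.0408) called it. The exon shares of SMARCC2 and PBRM1 were picked out after their values were seen, with no test. No share over all genes was computed for them.

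In the remaining members the leading isoforms overlapped between input and IP. SMARCB1 ENST00000407422 took 78.5 to 81.1% of the gene's counts in input and 78.6 to 82.1% in IP, the largest share of the members. In SMARCD1, ENST00000394963 took 27.8 to 48.9% and 36.2 to 53.8%, ENST00000548573 took 20.6 to 25.7% and 20.8 to 27.3%, and ENST00000381513, which lacks the 123-base exon at chr12:50096850-50096972, took 17.03 to 36.8% and 9.87 to 24.3%. ARID2 ENST00000334344 took 55.2 to 63.2% and 54.4 to 66.5%, and ENST00000422737, a shorter ARID2 isoform, took 28.0 to 37.7% and 30.1 to 38.2%. ARID1B was divided among several isoforms, and its leading ENST00000636748 (21.0 to 30.1%, 17.7 to 27.9%), ENST00000636930 (12.8 to 29.4%, 10.6 to 30.8%) and ENST00000350026 (4.39 to 22.0%, 1.9 to 32.6%) overlapped between fractions.

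Other subunits of these complexes were not called either. Of 19 listed, 18 were tested, and the neuronal subunit gene ACTL6B had 0 counts in all libraries. By edgeR 0 of 18 were called in each of the 5 comparisons, and 2 in clean air and 1 in formaldehyde had an unadjusted p under 0.05 for IP against input, beside 12.6% and 9.1% of all genes. The median log2 difference was 0.19 in clean air and 0.08 in formaldehyde, beside 0.02 and 0.00 over all genes. SMARCD2, an alternative to SMARCD1 that is named here after its values were seen, had log2 differences of 0.36 and 0.27 (adjusted p = 0.0669 and 0.242), and ACTB, the actin subunit, had 0.15 and 0.06. With the RNA pool as a block, BRD9, BCL7B, BCL7C and SMARCD2 were called as higher in CA_IP than in input, and BCL7B, BCL7C and SMARCD2 in FA_IP, fits that called 17.4% and 10.1% of all genes. In FA_IN against CA_IN their median was 0.03, beside 0.02 over all genes.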

How the data were processed

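Transcript tables of 8 libraries were analysed. According to the study's methods, libraries were made with a small RNA kit and sequenced to 75 bases, and the authors trimmed reads with cutadapt, aligned them to GRCh38 with STAR 2.6.0a and an Ensembl annotation, and ran RSEM 1.2.25. The deposited values are expected counts, not normalised, and TPM, which the authors' RSEM scaled by effective length to a fixed total per library. RSEM divides reads shared by isoforms, so isoform counts are estimates. The 3 deposited tables of DESeq2 fold changes and p-values, 2 of them identical, were not used.

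Expected counts were summed by gene and rounded. Genes or isoforms with at least 10 counts in at least 2 libraries were fitted on all 8 libraries with edgeR 4.0.16 (TMM, quasi-likelihood, limma 3.58.1, R 4.3.3), isoform shares with diffSpliceDGE, and p-values were adjusted by Benjamini-Hochberg over all features tested, with a limit of 0.05. DESeq2 1.42.0, other scalings, filters, effective lengths, 4-library fits, replicate blocks and each library left out were alternatives. Log2 differences used a prior count of 0.125. Gene coordinates and transcript sequences came from GENCODE 44 on GRCh38, which held 254 of the 258 member isoforms, 238 of them with the deposited length. The scripts were tested on simulated counts with known changes. Those counts were drawn independently for each library, so RNA pools shared by libraries and reads divided among isoforms were not simulated.

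Isoforms were named where they had the largest share of a member, at least 15% of it on average, a call, one of the 2 smallest p in input between treatments or in the difference in enrichment, or a place in the study's tables. Isoforms without overlap and coding segments were chosen after their values were seen. Members and lists were chosen with earlier results of these data known. Replicate numbers are absent from the labels, so the main fits were unpaired. The number in the submitters' file names was taken as the RNA pool in the block, and deviations from group means correlated over 13909 genes at 0.68 (CA) and 0.549 (FA) between input and IP of the same number, and at 0.525 and 0.505 between treatments. No molecular identifiers are described, so bounds cover counting error only, and p-values measure the spread between duplicates. The bounds do not cover the way RSEM divides reads among isoforms.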

Additional observations from a re-analysis of the deposited data

How the results depend on the processing

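Of 870 log2 differences of the members recomputed under up to 18 alternative settings, 97 had the other sign, none of them a called value, and the only member call to change was SMARCB1 in FA_IP against FA_IN, so that with the RNA pool as a replicate block 1 member was called there. That block raised the calls over all genes from 349 to 3178 in clean air and from 274 to 1835 in formaldehyde, and DESeq2 gave 509 of 10108 and 389 of 18242. Library size called 6.34% and 3.08% of all genes, and the fit without a filter 1.92% in clean air. The file number block called 10.6% and 5.22%. Between treatments it called 1.41% in FA_IN against CA_IN, where the main fit called 0.00548%, and 2.08% in FA_IP against CA_IP. Other SWI/SNF subunits called in clean air numbered 2 with library size in place of TMM, 1 with DESeq2, 4 with the RNA pool block and 3 with the file number as a block, and in formaldehyde 1, 3 and 2 with library size and the 2 blocks. Other remodellers numbered 2 with library size, 1 without a filter, 2 with DESeq2, and 7 and 4 with the 2 blocks in clean air. In formaldehyde they numbered 1 with library size and 4 and 1 with the blocks, and 2 with the file number block in FA_IP against CA_IP.

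Library size moved the median of all genes from 0.02 to 0.16 in clean air and from 0.00 to 0.17 in formaldehyde, and the members' median to 0.21 and 0.18. With an offset for effective length the members' median was -0.023 in clean air and -0.079 in FA_IN against CA_IN. Leaving out 1 library at a time put it between -0.034 and 0.095 in clean air, -0.065 and 0.021 in formaldehyde, -0.01 and 0.053 for the treatments in input, -0.061 and 0.032 in IP, and -0.104 and 0.006 for the difference in enrichment. In these fits edgeR pools the spread, and a lone library is assumed to vary like the other groups.

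Member isoforms called without a filter were 2 in clean air, 2 in formaldehyde, 1 in FA_IP against CA_IP and 1 in the difference in enrichment, beside 0.484, 0.355, 0.105 and 0.1% of all isoforms, and with DESeq2 they were 2, 4, 1 and 1, beside 2.28, 1.55, 0.492 and 0.338%. Members called by isoform share in formaldehyde were 0 with a mean count of at least 50, with isoforms of at least 5% and with the RNA pool block, and 0 to 1 with a library left out. The cause of these changes was not tested. Replicates of 2 limit every comparison, and isoforms with few counts or little sequence of their own are the least certain.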

Other observations

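Of 27 genes of the other chromatin remodelling families (ISWI, CHD, INO80 and SRCAP, and single ATPases), all were tested and 0 were called by edgeR in each of the 5 comparisons. For IP against input, an unadjusted p under 0.05 was reached by 5 genes in clean air (2 above and 3 below 0) and by 4 in formaldehyde (1 above and 3 below 0), beside 12.6% and 9.1% of all genes. Their median log2 difference was -0.06 in clean air and -0.11 in formaldehyde, beside 0.02 and 0.00 over all genes, and 19 and 20 of the 27 lay below 0. Named after their values were seen, the highest value was that of RUVBL2, an AAA+ ATPase of the INO80 and SRCAP complexes (0.44 and 0.34, adjusted p = 0.0741 and 0.244), and the lowest that of CHD9, a chromodomain helicase (-0.42 and -0.30, adjusted p = 0.0872 and 0.322). With the RNA pool as a replicate block, RUVBL1, RUVBL2 and MTA2 were called as higher and HLTF, ATRX, CHD1 and CHD9 as lower in CA_IP, and in FA_IP RUVBL1 and RUVBL2 were called as higher and ATRX and CHD9 as lower, in fits that called 17.4% and 10.1% of all genes. Of the 12 markers tested, KRT8, a keratin of simple epithelia, was called by edgeR as higher in CA_IP than in CA_IN (0.41, adjusted p = 0.0347), as 0.148% of all genes were. All 12 lay above 0 there, with a median of 0.28. The keratins KRT7 (0.51), KRT17 (0.51), KRT19 (0.47) and KRT18 (0.42) had larger differences than KRT8 and were not called.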
